A study of Mus musculus with 4 samples.

Results

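Collagens, laminins and integrins are the genes by which cells make, anchor to and sense the extracellular matrix. The members were chosen by gene symbol: every feature named as a collagen chain (Col, a number, a and a number), as a laminin alpha, beta or gamma chain (Lama, Lamb or Lamc) or with the prefix Itga or Itgb. The rule found 86 of 32286 features, which were 44 collagen genes, 11 laminin genes and 31 genes with an Itg prefix. Of the Itg genes, 4 do not encode integrin chains (Itgb1bp1, Itgb1bp2, Itgb3bp and Itgbl1). They were kept because the rule matched them, and are named apart.

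The samples were 4 single-cell RNA libraries of fresh mouse tumour tissue labelled MB, with 1 library for each genotype and sex. SG stands for fSMO-M2;hGFAPcre, in which Cre under the human GFAP promoter switches on SMO-M2, a constantly active form of the Hedgehog signal transducer Smoothened. YSG stands for fYap1;fSMO-M2;hGFAPcre, which adds a floxed Yap1 allele and is described as rescued. All animals were taken at end point, and all carry SMO-M2 and the Cre, so no library represents tissue without the oncogene. The human GFAP promoter drives Cre in neural stem and progenitor cells, so blood vessel, meningeal and immune cells are outside its usual reach. The sources used here do not give the number of animals behind a library, their ages or whether 1 or both copies of Yap1 were floxed.

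Collagen chains wind into triple helices and build fibrils (types I, III, V and XI), sheet-like networks in basement membranes (type IV) or smaller forms that decorate them. Laminins are cross-shaped trimers of an alpha, a beta and a gamma chain that start the assembly of a basement membrane. Integrins are receptors made of an alpha and a beta chain, and they tie this matrix to the actin skeleton of the cell. Granule cell progenitors of the developing cerebellum sit under the pial basement membrane, where laminin and integrin beta 1 are known to support their response to Hedgehog ligand.

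The 4 matrices held 7289 to 8505 barcodes and 58478914 to 86906706 unique molecular identifiers (UMIs, tags that each mark 1 captured RNA molecule). Kept cells numbered 8419 in SG males, 7882 in YSG males, 7656 in SG females and 7193 in YSG females, with median UMIs per cell from 5872 to 7420. Pairs of libraries shared 10 to 21 barcodes. Yap1 itself had 266 and 374 UMIs in the kept cells of SG males and SG females, and 10 and 3 in those of YSG males and YSG females. Cells with a Barhl1 or Zic1 UMI and no other marker class were taken as granule-lineage cells. Both genes mark the cerebellar granule neuron lineage. They numbered 5969 in SG males, 6120 in YSG males, 5137 in SG females and 5681 in YSG females. Endothelial cells numbered 8, 4, 22 and 7 in the same order, fibroblast-like cells 15, 1, 9 and 0, and leukocytes 15, 24, 10 and 43. The astroglial and oligodendrocyte precursor marker classes had 428 to 1152 and 431 to 571 barcodes a library. Both held granule markers at levels close to those of granule-lineage cells, so their names do not stand. The astroglial class held 22.05% of kept UMIs in SG males, 14.7% in YSG males, 25.2% in SG females and 9.59% in YSG females. It therefore left out more of both SG libraries than of both YSG libraries. With 1 library a group there is no replicate, so no test was made. Intervals in brackets are exact 95% intervals for counting error only, and do not cover differences between animals.

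Granule-lineage cells transcribed few of the 86 genes at a level that could be compared. Levels are in CPM, the UMIs of a gene per 1000000 UMIs of the same cells, counted near the 3' end of each RNA and so not divided by gene length. The level of 5 CPM was reached in some library by 25 members, made up of 11 collagens, 4 laminins and 10 Itg genes. The other 61 stayed below 5 CPM in all 4 libraries, 48 of them below 1 CPM, and Itgb2l had no UMI in granule-lineage cells. Closest inside that limit were Lama2, Itga5 and Col9a2, with highest values of 6.33, 6.21 and 5.30 CPM. Closest outside it were Col4a5, Col28a1 and Lamb2, at 4.93, 3.98 and 3.96 CPM.

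**Figure D1:**
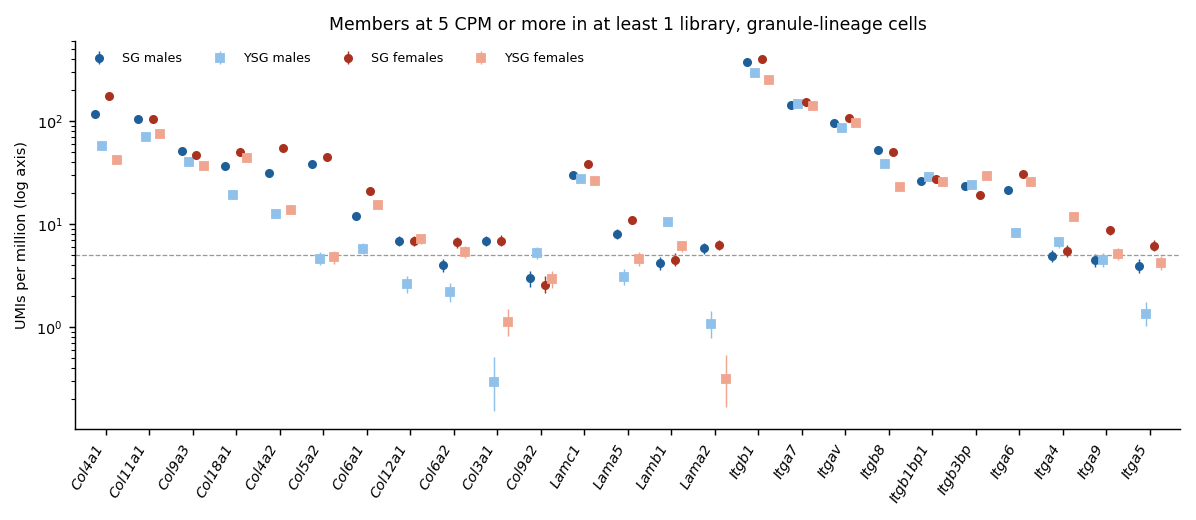
Levels in granule-lineage cells of the 25 members that reached 5 CPM in any library, by library (log axis, CPM; bars are exact Poisson 95% intervals; the dashed line marks 5 CPM). Itgb1 stands highest in all 4 libraries, from 253.5 to 402 CPM, and the points of Col5a2, Col3a1 and Lama2 fall apart by genotype.

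Integrin beta 1, the beta chain of the laminin and collagen receptors, was the most abundant member. Itgb1 stood at 377 CPM in SG males, 298 in YSG males, 402 in SG females and 253.5 in YSG females, and made up 27.2% to 32.0% of all member UMIs. Next in most libraries came Itga7, which pairs with Itgb1 to bind laminin, at 144, 147, 154 and 141 CPM in the same order. In SG females Col4a1, a type IV collagen chain, stood between them at 175.5 CPM [171.5 to 179.5]. Itgav and Col11a1 followed in SG females at 106.6 and 106.2 CPM, with overlapping intervals. In YSG males and YSG females Col4a1 stood at rank 5 and rank 6 among the members.

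All members together made up 1256 CPM in SG males, 929 in YSG males, 1440 in SG females and 933 in YSG females. The collagens accounted for most of that difference. They summed to 441 CPM in SG males against 236 in YSG males, and to 554 CPM in SG females against 269 in YSG females. Laminins summed to 53.1 and 44.2 CPM in males and 66.2 and 39.6 in females. The Itg genes summed to 762 and 649 CPM in males and 819.9 and 624 in females.

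Comparing YSG with SG asks how the members differ where Yap1 can be removed, and YAP1 is a transcriptional coactivator known for matrix and adhesion targets. The log2 ratio of YSG over SG was taken with 1 CPM added to each side, and a member was called when it passed 2-fold on that scale. Only genes at 5 CPM or more in either library of the pair were read. In males 22 of the 86 members could be read, and 8 were called lower, against 2.08% of all genes, while 1 was called higher, against 1.46%. In females 24 could be read, and 7 were called lower, against 2.12% of all genes, while none was called higher, against 3%. The median log2 ratio of the members read was -0.50 in males and -0.44 in females, beside -0.01 in males and -0.0046 in females over all genes read.

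The members read differ in how they passed. In males 14 were at 5 CPM or more in both libraries, and 3 of these were called lower (Col4a1, Col4a2 and Itga6), against 1.16% of all such genes, and 0 higher, against 0.891%. In females 18 were, and 3 were called lower (Col4a1, Col4a2 and Itgb8), against 1.28%, and 0 higher, against 1.89%. The others came in through 1 library alone, which fixed their direction. All 5 through SG males were called lower (Col3a1, Col5a2, Lama5, Col12a1 and Lama2), against 36.9% of all such genes. Of 3 through YSG males 1 was called higher (Lamb1), against 22.5% of all such genes. Of 5 through SG females 4 were called lower (Col3a1, Col5a2, Lama5 and Lama2), against 33.7%. The 1 through YSG females was not called, where 31.9% of all such genes were called higher. The counts therefore describe the members read, not the 86.

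In both sexes 21 members could be read, and 6 were called lower in both: Col3a1, Col5a2, Col4a1, Col4a2, Lama2 and Lama5. Over all genes 1.39% were called lower in both sexes and 0.991% higher in both. Of the 6, 4 (Col3a1, Col5a2, Lama2 and Lama5) reached 5 CPM only in the SG library of each sex, and of all 133 genes that came in that way 43.6% were called lower in both sexes. The other 2, Col4a1 and Col4a2, were among 14 members at 5 CPM in all 4 libraries, where 0.733% of 9410 genes were called lower in both sexes. The male and female comparisons use separate libraries. Over all kept cells, of every class, 9 of 24 members read were lower in males (2.37% of all genes) and 7 of 26 in females (2.45%), with 0 higher in males (1.56%) and in females (3.11%). These counts were not split by the library that passed the filter. When the barcodes of the astroglial and precursor classes with a Barhl1 or Zic1 UMI were put back among granule-lineage cells, an alternative chosen after seeing the data, 8 were lower and 1 was higher in males, and 7 were lower and 0 higher in females.

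**Figure D2:**
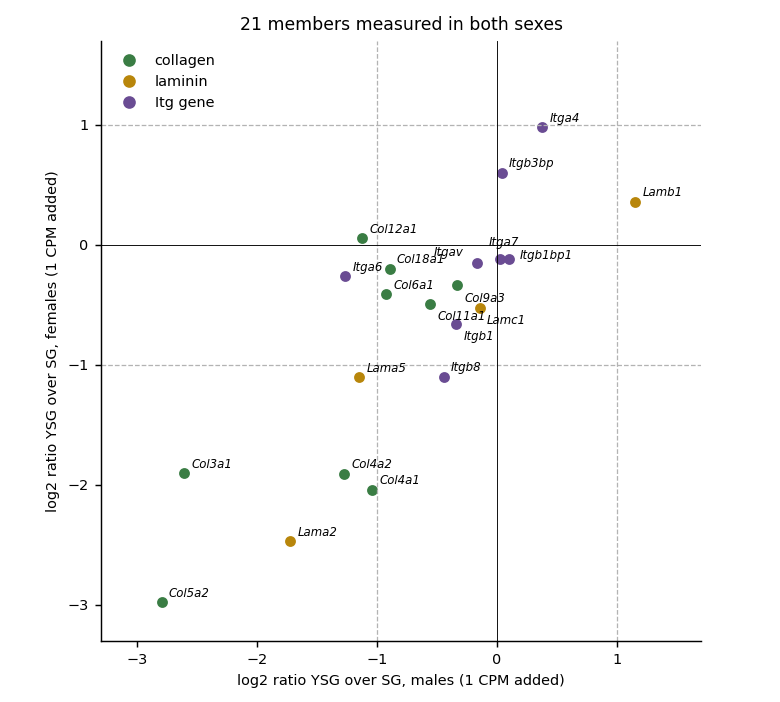
Log2 ratio of YSG over SG in granule-lineage cells, males on the x axis and females on the y axis, for the 21 members read in both sexes (1 CPM added; dashed lines mark 2-fold). Col5a2, Col3a1, Lama2, Col4a1, Col4a2 and Lama5 lie past 2-fold lower in both sexes, and Itga7 lies near 0 on both axes.

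Upstream sequence was read because 6 members were lower in both sexes. RefSeq promoter windows on GRCm38.p6 were found for 62 of the 86 members, and 5 of the 6 (Col5a2 was not in the table). The letters GGAATG, or CATTCC on the other strand, are the core bound by TEAD factors, the DNA-binding partners of YAP1. In the 250 bases before the start they occurred in 1 of those 5 (Col3a1), in 10.3% of 68 member windows and in 12.6% of all 32851 windows. The GC box, GGGCGG or CCGCCC, occurred in 47.1% of member windows and in 32.7% of all. Member windows were also richer in G and C bases, with a median of 57.8% beside 52.4% in all windows. The longer letters TGGGTGGTC, the GLI core, searched on both strands, occurred in none of the member windows and in 0.225% of all. The windows of Col4a1 and Col4a2 run into each other's exons and are not shown. Below are the 250 bases upstream of the 3 other members lower in both sexes, and of Itgb1, the most abundant member, in lower case with the TEAD core and GC box letters, on either strand, in capitals, 5' to 3' on the strand of the gene. The Lama2 window lies inside the longer GENCODE gene and overlaps no exon. A match is a description of the letters only.
Col3a1, chr1:45311288-45311537, plus strand: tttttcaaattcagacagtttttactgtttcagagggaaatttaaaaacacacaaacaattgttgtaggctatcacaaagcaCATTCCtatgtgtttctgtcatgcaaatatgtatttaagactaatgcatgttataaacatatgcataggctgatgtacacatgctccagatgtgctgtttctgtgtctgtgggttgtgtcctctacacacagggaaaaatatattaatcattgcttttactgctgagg
Lama2, chr10:27616943-27617192, minus strand: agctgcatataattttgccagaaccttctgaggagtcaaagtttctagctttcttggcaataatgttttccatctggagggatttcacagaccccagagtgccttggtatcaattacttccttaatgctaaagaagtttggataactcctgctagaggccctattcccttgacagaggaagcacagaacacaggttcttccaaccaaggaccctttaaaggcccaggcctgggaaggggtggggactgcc
Lama5, chr2:180225860-180226109, minus strand: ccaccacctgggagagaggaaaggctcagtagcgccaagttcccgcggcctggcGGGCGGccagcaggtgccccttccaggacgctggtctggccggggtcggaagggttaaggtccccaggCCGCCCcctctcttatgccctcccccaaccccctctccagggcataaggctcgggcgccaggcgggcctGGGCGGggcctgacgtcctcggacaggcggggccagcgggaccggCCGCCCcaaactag
Itgb1, chr8:128685404-128685653, plus strand: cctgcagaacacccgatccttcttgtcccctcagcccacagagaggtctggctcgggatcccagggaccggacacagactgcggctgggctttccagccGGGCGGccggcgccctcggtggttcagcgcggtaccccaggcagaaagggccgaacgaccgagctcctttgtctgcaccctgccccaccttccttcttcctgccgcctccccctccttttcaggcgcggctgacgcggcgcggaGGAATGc

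Col5a2 had the lowest log2 ratio of the members read in each sex on the scale with 1 CPM added. As a plain fold, Col3a1 in males and Lama2 in females differed more. It encodes a chain of type V collagen, which starts fibrils and sets their width. Its level was 38.3 CPM in SG males, 4.66 in YSG males, 44.7 in SG females and 4.80 in YSG females. Both SG libraries stood far above both YSG libraries. YSG was 8.22-fold lower in males [7.07 to 9.61] and 9.32-fold lower in females [8.04 to 10.85].

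Col3a1, which encodes the chain of fibrillar type III collagen, is its neighbour in the genome. It was far less abundant, with 294 UMIs in SG males, 12 in YSG males, 294 in SG females and 46 in YSG females. In CPM these were 6.92, 0.296, 6.96 and 1.13, so the 2 SG libraries agreed closely and both YSG libraries stood below them. YSG was 23.4-fold lower in males [13.2 to 45.7] and 6.19-fold lower in females [4.52 to 8.64]. On GRCm38, Col3a1 lies on the plus strand at chr1:45311538-45349706 and Col5a2 on the minus strand at chr1:45374321-45503282, with their 3' ends facing across 24615 bases.

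Type IV collagen, the network former of basement membranes, was the leading collagen of the SG libraries, while Col11a1 stood above Col4a1 in both YSG libraries. Col4a1 stood at 118.8 CPM in SG males, 57.25 in YSG males, 175.5 in SG females and 41.85 in YSG females. SG females were the highest library and YSG females the lowest. YSG was 2.07-fold lower in males [1.975 to 2.18], an interval that reaches below 2-fold, and 4.19-fold lower in females [3.98 to 4.42].

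Col4a2, whose product joins 2 chains of Col4a1 in the common type IV trimer, was likewise lower in both YSG libraries. Its level was 31.9 CPM in SG males, 12.6 in YSG males, 54.7 in SG females and 13.85 in YSG females. YSG was 2.53-fold lower in males [2.28 to 2.805] and 3.95-fold lower in females [3.60 to 4.34]. The genes are transcribed head to head on chr8, Col4a1 on the minus strand at chr8:11198423-11312826 and Col4a2 on the plus strand at chr8:11312805-11449287, with 22 annotated bases shared at their starts. Of the 6 members lower in both sexes, 4 thus lie in 2 neighbour pairs. Members within 100 kb of each other made up 14 pairs in all, most of them too low to be read. Col4a5, another type IV chain, stayed below the limit at 4.05, 1.702, 4.93 and 2.67 CPM, in the order in which the libraries are given throughout (SG then YSG, males before females).

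The remaining collagens differed less or in 1 sex only. Col11a1, a fibrillar chain best known from cartilage, had 104.5 CPM in SG males, 70.8 in YSG males, 106 in SG females and 75.3 in YSG females. Both YSG libraries were lower, by 1.48-fold in males [1.41 to 1.55] and 1.41-fold in females [1.35 to 1.48], short of a call. Col9a3, a chain of the fibril-decorating type IX collagen, had 51.2, 40.4, 46.8 and 36.8 CPM in the same order, log2 ratios of -0.33 for males and -0.34 for females.

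Col18a1 encodes a basement membrane collagen that releases endostatin. It had 36.5 CPM in SG males, 19.1 in YSG males, 50.3 in SG females and 43.7 in YSG females, so YSG males stood apart from the other 3 libraries. YSG was 1.91-fold lower in males [1.75 to 2.08] and 1.15-fold lower in females [1.08 to 1.23]. Col12a1, a fibril-associated collagen, showed the same layout, with 6.87 CPM in SG males, 2.615 in YSG males, 6.94 in SG females and 7.24 in YSG females. It was called lower in males, 2.63-fold [2.10 to 3.31], while in females the YSG over SG fold was 1.04 [0.885 to 1.23]. Col6a1, of the beaded-filament type VI collagen, had 11.95, 5.82, 20.9 and 15.5 CPM in the usual order, and was not called in either sex.

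Collagen lists taken from textbook groups gave small counts. Of 11 fibrillar collagen genes 3 could be read in each sex, and 2 were called lower in each (Col3a1 and Col5a2), with Col11a1 between them and 0. Both called genes came in through the SG library alone and so had to be lower in YSG, and of all such genes 36.9% were called lower in males and 33.7% in females. Of 9 network-forming genes 2 could be read, Col4a1 and Col4a2, and both were called lower in each sex (2.08% of all genes read in males, 2.12% in females). None of the 4 transmembrane collagens could be read. No call higher was made among the collagens read, 10 in each sex.

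Among the laminins, both readable alpha chains were lower in YSG and the readable beta chain was higher. The filter fixed these directions. Both alpha chains, Lama2 and Lama5, came in through the SG library alone in each sex and had to be lower. Of all such genes 36.9% were called lower in males and 33.7% in females. Lamb1 came in through the YSG library alone in each sex and had to be higher. Of all such genes 22.5% were called higher in males and 31.9% in females. Lama2, the alpha chain of the laminin of muscle and peripheral nerve, had 250 UMIs in SG males, 44 in YSG males, 267 in SG females and 13 in YSG females. In CPM these were 5.88, 1.085, 6.325 and 0.318. The SG libraries were alike and the YSG libraries both low, by 5.42-fold in males [3.92 to 7.65] and 19.9-fold in females [11.4 to 37.8]. Lama2 lies on the minus strand at chr10:26980036-27619758.

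Lama5 encodes the alpha chain of the widespread laminins of mature basement membranes. It had 8.07 CPM in SG males, 3.08 in YSG males, 11.1 in SG females and 4.625 in YSG females. YSG was 2.62-fold lower in males [2.13 to 3.24] and 2.40-fold lower in females [2.025 to 2.86]. Lamc1, the common gamma chain, was not called, with 30.25, 27.3, 38.4 and 26.4 CPM in the usual order and log2 ratios of -0.14 for males and -0.52 for females.

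Lamb1, the beta chain that pairs with Lamc1 in most laminins of the brain, had 4.21 CPM in SG males, 10.6 in YSG males, 4.55 in SG females and 6.12 in YSG females. YSG males stood highest, and both YSG libraries stood above both SG libraries. YSG was 2.51-fold higher in males [2.11 to 3.01] and 1.345-fold higher in females [1.11 to 1.63], and only the male ratio was called. The beta chains Lamb2 and Lamb3 stayed below the limit, Lamb3 at 0.173 CPM or less. Lamb2 had 133 UMIs in SG males, 17 in YSG males, 167 in SG females and 36 in YSG females, so its direction was opposite to that of Lamb1.

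The make-up of the laminin chain UMIs in granule-lineage cells differed between the SG and YSG libraries, with 1 library a group. The beta chain shares rest partly on Lamb2, which was under 5 CPM in every library. In cycling cells of females Lamb1 had 113 UMIs in SG and 68 in YSG, and Lamb2 had 112 and 19. Lamb1 supplied 56.8% of beta chain UMIs in SG males [51.15 to 62.4], 94.7% in YSG males [92.2 to 96.6], 52.6% in SG females [47.3 to 57.8] and 85.3% in YSG females [80.75 to 89.2]. The intervals of the 2 SG libraries overlap each other and lie below those of the 2 YSG libraries. Lama2 supplied 38.6% of alpha chain UMIs in SG males, 20.4% in YSG males, 33.8% in SG females and 5.63% in YSG females. Lama5 was the main alpha chain in every library, from 53.0% to 81.8%. Lamc1 supplied at least 98.45% of gamma chain UMIs in each of the 4 libraries. A share of UMIs says which genes were transcribed, not which trimers were assembled.

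**Figure D3:**
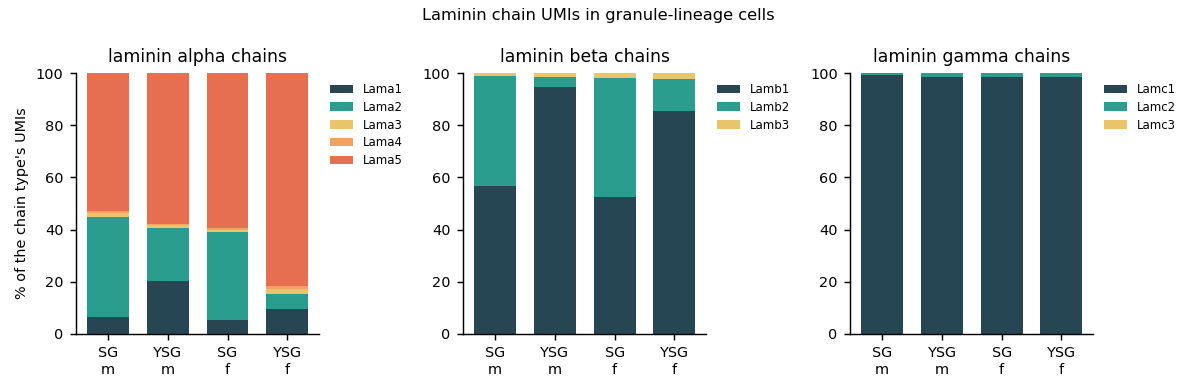
Share of each laminin chain among the UMIs of its chain type in granule-lineage cells of each library (stacked bars, % of UMIs, from 0 to 100; m, males and f, females). Lamb1 takes 56.8% and 52.6% of the beta chain bar in SG males and females and 94.7% and 85.3% in YSG males and females.

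On the receptor side, 1 of 8 Itg genes read was called lower in males and 1 of 10 in females, against 2.08% and 2.12% of all genes. Itgb1 was 1.27-fold lower in YSG males [1.24 to 1.30] and 1.59-fold lower in YSG females [1.55 to 1.63], from the levels given above. Itga7 had a YSG over SG fold of 1.02 in males [0.981 to 1.05] and 0.920 in females [0.888 to 0.954]. Itgav, an alpha chain that binds the RGD motif of fibronectin and vitronectin, had 96.7 CPM in SG males, 86.1 in YSG males, 106.6 in SG females and 95.6 in YSG females. All 4 values of Itga7 lay between 141 and 154 CPM, and those of Itgav between 86.1 and 106.6.

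Itgb8 joins Itgav in a receptor that activates latent TGF-beta. It had 52.4 CPM in SG males, 38.2 in YSG males, 50.7 in SG females and 23.1 in YSG females. YSG was 1.37-fold lower in males [1.28 to 1.46] and 2.19-fold lower in females [2.03 to 2.37], and only the female ratio was called. Itga6, which with Itgb1 forms a laminin receptor of neural progenitors, had 21.5 CPM in SG males, 8.34 in YSG males, 31.0 in SG females and 25.7 in YSG females. YSG males stood apart below the other 3 libraries, 2.58-fold lower than SG males [2.27 to 2.93], while YSG females were 1.21-fold lower than SG females [1.11 to 1.31].

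Itga4, an alpha chain that binds fibronectin and VCAM1, went the other way. It had 4.92 CPM in SG males, 6.685 in YSG males, 5.54 in SG females and 11.9 in YSG females. In males Itga4 was under 5 CPM in SG, so it was read through YSG alone and had to be higher. YSG was 1.36-fold higher in males [1.13 to 1.64] and 2.15-fold higher in females [1.84 to 2.52], which on the log2 scale with 1 CPM added was 0.98 and stayed just short of a call. Of the matched genes that are not integrin chains, 2 could be read in each sex and none was called. Itgb1bp1, a partner of the beta 1 tail, had 26.6, 28.5, 27.8 and 25.5 CPM in the usual order, and Itgb3bp, a centromere protein also named Cenpr, had 23.6, 24.3, 19.2 and 29.6.

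By chain, Itga7 supplied 48.8% to 57.1% of integrin alpha UMIs and Itgav 33.15% to 34.7%. Itgb1 supplied 87.5% to 90.9% of integrin beta UMIs, and Itgb8 8.29% to 12.15%. The collagen-binding chains Itga1, Itga2, Itga10 and Itga11 could not be read in granule-lineage cells. Of 5 laminin-binding chains 3 could be read, with 1 called lower in males (Itga6) and 0 in females. Of 9 RGD-binding and related chains 2 could be read in males and 4 in females, with 0 called in males and 1 called lower in females (Itgb8).

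Cells of these tumours range from dividing progenitors to cells leaving the cycle, and the libraries hold unequal shares of them. Cells with at least 5 UMIs of a cell cycle marker list made up 43.9% of granule-lineage cells in SG males, 41.7% in YSG males, 45.2% in SG females and 33.1% in YSG females. Postmitotic cells, with at least 5 UMIs of neuron differentiation markers and at most 1 of the cycle list, made up 23.2%, 26.1%, 21.35% and 38.8%. Col4a1 was the only member called lower in postmitotic than in cycling cells in all 4 libraries, among 15 that could be read there, against 4.14% of all genes lower and 1.78% higher. Within single libraries more were lower: 8 of 23 in SG males (6.88% of all genes), 3 of 17 in YSG males (5.2%), 7 of 24 in SG females (6.43%) and 5 of 20 in YSG females (5.4%). Called higher in postmitotic cells were Col9a2 in SG males (5.77%), none in YSG males (2.84%) or SG females (6%), and Col9a2, Col12a1 and Lamb1 in YSG females (4.47%). Each of these was under 5 CPM in the cycling cells of its library and so had to be higher. Of the lower calls, Col3a1 and Col4a5 in both SG libraries came in through cycling cells alone and had to be lower. So did Lama5 in SG males and YSG females, and Col5a2 in YSG females. The shares in brackets are over all genes read. Col4a1 had 140.5 CPM in cycling and 34.1 in postmitotic cells of SG males, and 66.1 and 25.6 in those of YSG males. In females it had 209 and 56.9 CPM in SG, and 56.0 and 18.4 in YSG.

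Within cycling cells, where 2.2% of all genes were called lower in males and 2.23% in females, 9 of 23 members read were lower in males and 5 of 24 in females, with 0 higher in males (1.76%) and in females (2.48%). Within postmitotic cells, where 1.53% and 1.48% of all genes were called lower, 3 of 19 members were lower in males (Col5a2, Itga6 and Col12a1) and 5 of 21 in females (Col5a2, Lama5, Col4a1, Col4a2 and Itgb8), while Lamb1 was called higher in males (1.38% of all genes). In the granule-lineage cells of neither set, 6 of 25 were lower in males (2.23%) and 6 of 25 in females (1.92%). There Col9a2 and Lamb1 were called higher in males (1.66%) and 0 members in females (3.01%). Some called members were at 5 CPM in only 1 library of the pair, which fixed their direction. In males these were Col3a1, Col5a2, Lama2, Lama5, Col12a1 and Col6a1 in cycling cells. In postmitotic cells of males they were Col5a2, Col12a1 and Lamb1, and in cells of neither set Col3a1, Col12a1, Lama2 and Col9a2. In females they included Col3a1 and Lama2 in cycling cells and in cells of neither set, and Col5a2, Lama5 and Itga4 in postmitotic cells. Shares over such genes were not computed. Col5a2 differed by much the same fold in cycling and postmitotic cells. It had 41.6, 4.59, 47.5 and 5.75 CPM in cycling cells in the usual order, and 13.7, 1.88, 19.7 and 2.23 in postmitotic cells. Both YSG libraries stood below both SG libraries in each set, by 7.28-fold to 9.07-fold.

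Col4a1 differed less between genotypes in postmitotic cells of males, by 1.34-fold [1.10 to 1.63], than in their cycling cells, by 2.13-fold [2.002 to 2.26]. In females YSG was 3.73-fold lower in cycling cells [3.49 to 3.98] and 3.09-fold lower in postmitotic cells [2.61 to 3.67]. Lamb1 was 2.13-fold higher in YSG in cycling cells of males [1.665 to 2.75] and 2.897-fold higher in postmitotic cells [1.875 to 4.61]. In cycling cells of females Lamb1 had 4.34 CPM in SG and 3.585 in YSG, a fold of 0.826 [0.602 to 1.13], and in postmitotic cells 4.81 and 8.34 CPM, a fold of 1.73 [1.14 to 2.70]. Itga4 in postmitotic cells had 7.59 CPM in SG males, 11.03 in YSG males, 4.65 in SG females and 14.5 in YSG females. It was called higher in females, 3.12-fold [2.10 to 4.80], where 2.45% of all genes read were. There Itga4 was under 5 CPM in SG females, so it was read through YSG females alone and had to be higher.

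**Figure D4:**
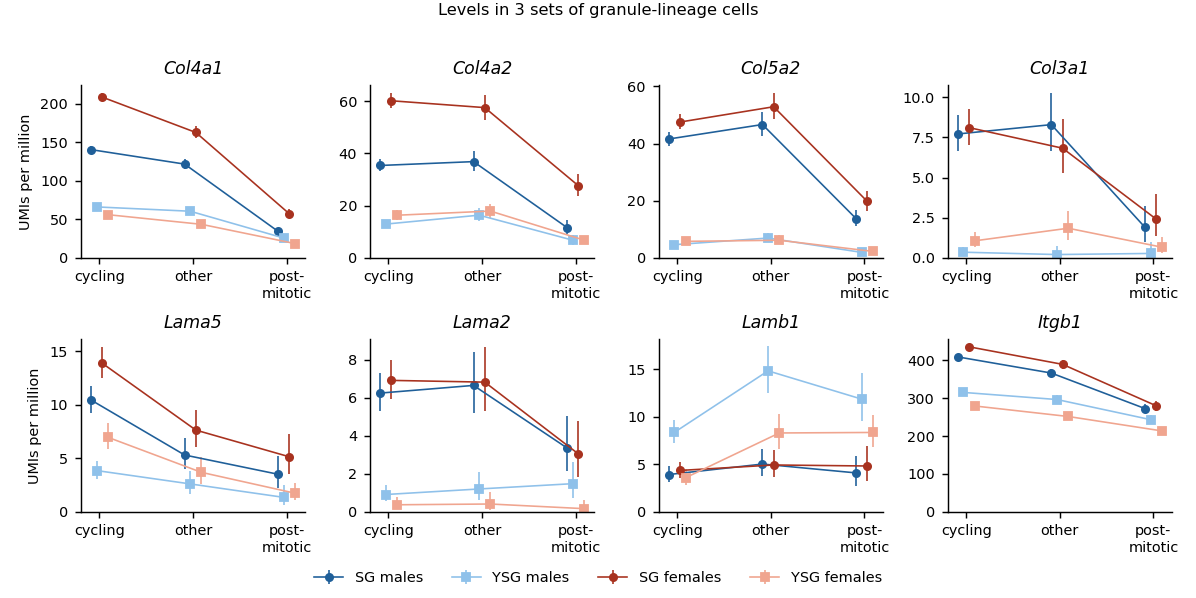
Levels of 8 members in cycling, other and postmitotic granule-lineage cells of each library (CPM, axis from 0; bars are exact Poisson 95% intervals; other cells are granule-lineage cells in neither set). Col4a1 is lowest in postmitotic cells in each library, and Col5a2 of both YSG libraries stays at 6.91 CPM or lower in each set.

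The share of cells with a UMI shows how widely the members were found. Cells were thinned to 2000 UMIs each, and 240 to 313 cells a library fell below that depth and were left out. Col4a1 was found in 14.8% of thinned granule-lineage cells of SG males [13.9 to 15.7], 8.59% of YSG males [7.88 to 9.34], 21.4% of SG females [20.2 to 22.55] and 6.41% of YSG females [5.77 to 7.10]. Unthinned shares were 31.8%, 21.4%, 42.05% and 17.4%, at median depths of 5767, 5555, 6636 and 6327 UMIs. Both measures put the libraries in the same order.

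Col5a2 was found in 6.35% of thinned cells of SG males, 0.775% of YSG males, 7.49% of SG females and 0.671% of YSG females, and unthinned in 19.1%, 2.58%, 23.6% and 2.71%. Itgb1 was found in 48.2%, 41.5%, 49.99% and 35.75% of thinned cells in the usual order, and unthinned in 79.2%, 72.9%, 83.0% and 70.2%. Itga7 was found in 23.9% to 24.7% of thinned cells in every library. Lamb1 was found in 0.838%, 1.98%, 0.859% and 1.23% of thinned cells.

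Free RNA in the droplets gives cells UMIs of genes they do not transcribe, so the same values were read in leukocytes, which should lack type IV collagen. With the 4 libraries summed, Col4a1 had 12 UMIs in 92 leukocytes, 26.3 CPM [13.6 to 45.96], beside 99.2 CPM in granule-lineage cells. After thinning, 1 of 7 leukocytes of SG males held a Col4a1 UMI (14.3%, interval 0.361 to 57.9), 0 of 15 of YSG males, 0 of 5 of SG females and 1 of 22 of YSG females. So few leukocytes bound the background share of a library only loosely. By library, Col4a1 stood at 55.2 CPM in leukocytes of SG males, 34.4 in YSG males, 20.9 in SG females and 10.5 in YSG females, from 1 to 5 UMIs each. Col5a2 had 2 UMIs in leukocytes of SG males (27.6 CPM [3.34 to 99.75]), 0 in YSG males [up to 25.4], 0 in SG females [up to 76.97] and 1 in YSG females (5.26 CPM [0.133 to 29.3]). These wide intervals hold the Col5a2 level of the granule-lineage cells in each of the 4 libraries. Pooled over libraries, leukocytes had 6.58 CPM of Col5a2 [1.36 to 19.2], an interval that lies below both SG granule-lineage levels and holds both YSG levels, so Col5a2 in YSG was not told apart from background. Lamb1 had no leukocyte UMI, with a pooled interval up to 8.09 CPM. Barcodes with oligodendrocyte markers, 12 to 25 a library, had Col4a1 at 217 CPM in SG males, 22.9 in YSG males, 200.2 in SG females and 18.3 in YSG females, above the granule-lineage level in both SG libraries and below it in both YSG libraries.

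Col4a2 UMIs were more frequent in cells with a Col4a1 UMI than in cells without one in each library. Among thinned granule-lineage cells of SG males, 14.05% of cells with a Col4a1 UMI had a Col4a2 UMI [11.8 to 16.6], beside 3.05% of cells without one [2.59 to 3.57]. The same shares were 6.41% and 1.92% in YSG males, 17.4% and 6.14% in SG females and 6.395% and 1.63% in YSG females. Itga7 was found in 26.6% of cells with and 23.4% of cells without a Col4a1 UMI in SG males, and in 26.05% and 24.6% in YSG males. In SG females the shares were 27.85% [25.15 to 30.7] and 22.8% [21.5 to 24.2], with intervals apart, and in YSG females 26.7% and 23.75%. These cells share a library and differ in cycle state, and the shares are given as a description.

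Other cells held the members in different proportions. Fibroblast-like cells, named for markers such as Dcn, Lum and Mgp, had Col4a1 at 2250 CPM over all libraries [2042 to 2473], Col3a1 at 1606, Col1a1 at 1188, Col1a2 at 1182 and Col4a2 at 868.5. They came from the SG libraries, with 15 cells in males and 9 in females. The only such barcode of YSG males had no UMI of Dcn, Lum, Col1a1, Col1a2 or Col3a1, and YSG females had none, so no genotype comparison was possible in them. These 25 barcodes held 66.4% of all Col1a1 UMIs [61.1 to 71.4] and 48.8% of all Col1a2 UMIs [44.2 to 53.5], but 1.19% of Col4a1 UMIs. The mural class held 2 barcodes, with 11 UMIs of Col4a2 (2170 CPM [1083 to 3882]), 10 of Col4a1 (1972 CPM [945.8 to 3627]) and 21 of Itga1 (4142 CPM [2564 to 6332]).

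Endothelial cells, which line vessels and lay down a basement membrane, had Col4a1 at 763.5 CPM [686.5 to 847], Itgb1 at 599.7, Col4a2 at 517, Itga1 at 174 and Lamc1 at 145 over the 4 libraries. Itga1, the alpha chain of a collagen receptor, was 402-fold higher than in granule-lineage cells [289.6 to 560.1]. Lama4, the alpha chain of vessel laminins, supplied 85.5% of endothelial laminin alpha UMIs [75.6 to 92.55], and endothelial cells held 45.1% of all its UMIs. By library, Col4a1 had 85 UMIs in 8 endothelial cells of SG males, 20 in 4 of YSG males, 229 in 22 of SG females and 25 in 7 of YSG females. In CPM these were 794, 620.2, 1110 and 201, so YSG females stood lowest and the male intervals overlapped.

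Leukocytes showed the receptor side. Itgb1 stood at 283 CPM, Itga4 at 116, Itgam and Itgb5 at 78.9 each and Itgav at 72.4. Itgam, the alpha chain of complement receptor 3 on microglia and myeloid cells, was 312-fold higher than in granule-lineage cells [194 to 499], where it had 42 UMIs in all. Itga4 had 1 UMI in 15 leukocytes of SG males, 30 in 24 of YSG males, 0 in 10 of SG females and 22 in 43 of YSG females. In CPM these were 13.8, 206, 0 and 115.6, high in both YSG libraries and low in both SG libraries. The exact interval of the 0 in SG females, over 47928 UMIs, reaches 76.97 CPM.

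**Figure D5:**
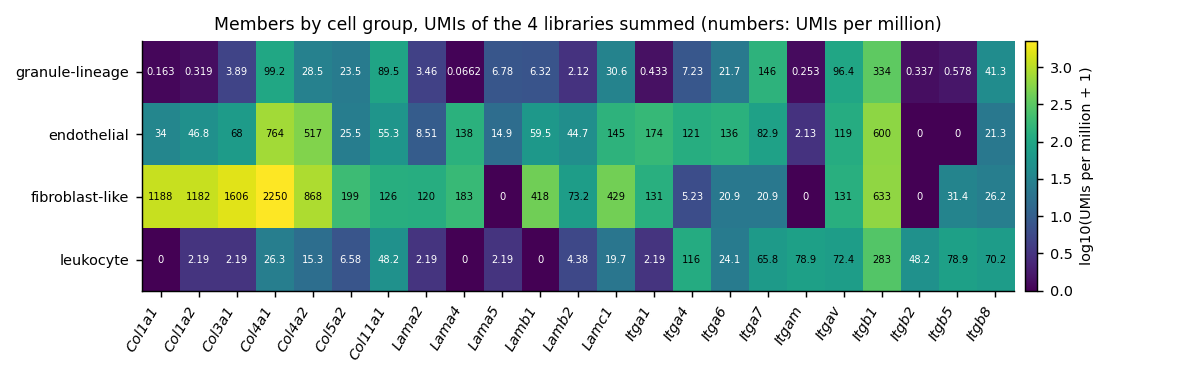
Levels of 23 members in 4 cell groups, UMIs of the 4 libraries summed (colour, log10 of CPM plus 1; numbers in the cells, CPM). Col1a1, Col1a2 and Col3a1 peak in fibroblast-like cells, Itga1 and Lama4 are high in endothelial and fibroblast-like cells, and Itgam and Itgb2 in leukocytes.

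Markers of matrix-making cells were read in the granule-lineage cells beside these results. The summed level of 12 fibroblast markers was 19.97 CPM in SG males, 19.9 in YSG males, 23.2 in SG females and 19.7 in YSG females. Single markers went different ways under that sum: 7 of the 12 were lower in YSG in both sexes and 1 was higher. Fbln1 had 9.24, 5.55, 12.55 and 5.87 CPM, and Serping1 had 3.88, 8.905, 3.885 and 12.1. The defining genes Dcn and Lum had 0 to 3 UMIs in each library.

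The 15 endothelial markers summed to 7.27, 6.22, 6.04 and 8.03 CPM in the usual order, with 4 lower and 2 higher in YSG in both sexes. The 10 mural (pericyte and smooth muscle) markers summed to 10.6, 3.82, 15.99 and 3.06 CPM, lower in both YSG libraries, with 5 lower (Kcnj8, Abcc9, Notch3, Acta2 and Tagln) and 1 higher (Myh11) in both sexes. Tagln, an actin-binding gene of smooth muscle, made up most of the sum in the SG libraries, with 7.41 CPM in SG males, 0.74 in YSG males, 10.6 in SG females and 1.03 in YSG females. Abcc9 had 1.36, 0.789, 1.37 and 0.465 CPM, and Acta2 had 0.165, 0.0987, 2.06 and 0.122. Higd1b was at 0 in 3 libraries and Pdgfrb in both female libraries. The part of mural and fibroblast RNA in the member differences was not tested.

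The UMIs of Col3a1 and Lama2 per UMI of Col1a2, a fibroblast collagen gene, are given as a description. Col3a1 per Col1a2 was 1.44 in fibroblast-like cells of SG males and 1.19 in those of SG females. In granule-lineage cells it was 14 in SG males, 3 in YSG males, 14.7 in SG females and 5.75 in YSG females, over 21, 4, 20 and 8 Col1a2 UMIs. Lama2 per Col1a2 was 0.0897 and 0.129 in the fibroblast-like cells, and 11.9, 11, 13.35 and 1.625 in granule-lineage cells.

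The sexes were compared within each genotype, since sex differences are named as the subject of the series. In SG, 23 members could be read between males and females and none passed 2-fold, against 0.12% of all genes lower and 0.04% higher in males. Col4a1 and Col4a2 were 1.48-fold [1.425 to 1.53] and 1.72-fold [1.605 to 1.84] lower in SG males than in SG females. In YSG, 20 members could be read and 4 were called lower in males (Itga6, Col12a1, Col6a1 and Col18a1), against 1.24% of all genes lower and 0.433% higher. Of these, Col12a1 was under 5 CPM in YSG males, so it was read through YSG females alone and had to be lower. The share over such genes was not computed. Itga6 was 3.08-fold lower in YSG males [2.72 to 3.49], Col12a1 2.77-fold [2.21 to 3.49], Col6a1 2.66-fold [2.29 to 3.10] and Col18a1 2.28-fold [2.095 to 2.48]. With 1 library for each sex and genotype, a difference between sexes and one between libraries cannot be told apart.

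The genes that process, accompany and read this matrix were taken from textbook lists. Their counts stand beside 2.08% of all genes read called lower and 1.46% higher in males, and 2.12% lower and 3% higher in females. On lists this short 1 gene is a large share. Except where stated, the counts were not split by the library that passed the filter. A gene that came in through 1 library alone had its direction fixed, and 22.5% to 36.9% of all such genes were called. Of 24 collagen maturation genes 10 could be read in males and 11 in females, with 1 and 2 called lower and none higher. Loxl1, which cross-links elastin and collagen, had 52.4 CPM in SG males, 15.1 in YSG males, 68.5 in SG females and 12.5 in YSG females, while Ppib, a proline isomerase that helps collagen fold, had 618.5, 788, 543.5 and 908. Plod2, a collagen lysyl hydroxylase, had 162, 105, 194.5 and 121 CPM. Loxl1 was low in both YSG libraries, by log2 ratios of -1.73 and -2.37, and Ppib was higher in both, by 0.35 and 0.74.

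Of 11 other basement membrane genes 5 could be read in each sex, with 1 called lower in males and 2 in females, and 0 and 1 higher. Sparc, a collagen-binding matrix protein, had 26.6 CPM in SG males, 10.9 in YSG males, 29.4 in SG females and 4.48 in YSG females, and was called lower in both sexes. In females Sparc came in through the SG library alone, and of all such genes 33.7% were called lower. Smoc2, a relative of Sparc, had 2.28, 5.155, 2.82 and 8.59 CPM and was called higher in females. There Smoc2 came in through the YSG library alone and had to be higher, and of all such genes 31.9% were called higher. Of 23 matrix glycoproteins 6 could be read in males and 7 in females, with 3 and 1 called lower. Fn1, fibronectin, had 14.65, 5.97, 19.45 and 7.56 CPM, low in both YSG libraries.

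Of 23 integrin adaptors and kinases 15 could be read in each sex, with 1 called lower in each and none higher. Vcl, vinculin, which links integrins to actin, had 305 CPM in SG males, 163 in YSG males, 339 in SG females and 157 in YSG females, a log2 ratio of -0.90 in males and -1.10 in females. Tns1, tensin 1, had 21.2, 5.65, 23.2 and 19.5 CPM, so YSG males alone were low. Of 16 proteases and inhibitors 8 could be read in each sex, with 1 and 3 called lower and 0 and 2 higher. Of 11 other matrix receptors 10 could be read, with Cd44 and Sdc4 called lower in both sexes. Cd44, the hyaluronan receptor, had 24.75, 9.89, 32.7 and 11.2 CPM in the usual order.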

How the data were processed

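Single-cell RNA libraries (10x Genomics 3' chemistry) of 4 samples were used, 1 for each genotype and sex. The deposited values are UMI counts per gene and barcode, made by the authors with Cell Ranger 5.0.1, per the file headers, on mm10, per the submitters' processing notes. Barcodes with at least 500 UMIs and 300 genes and at most 20% mitochondrial UMIs were kept. A barcode joined a cell class with at least 3 markers and 4 UMIs of its list, and a granule-lineage cell had a Barhl1 or Zic1 UMI and no other class. The scrublet caller marked 0% of barcodes at its own threshold, so doublets were kept, and an alternative left out the top 6%. UMIs were summed per library and class and divided by the UMIs of those cells. Library totals ran from 58478914 to 86906706 UMIs. Exact 95% intervals (Poisson for levels, Clopper-Pearson for shares, conditional binomial for folds) treat UMIs as independent and cover counting error only. With 1 library a group, no test or p-value was possible. Sums and calls were tested on simulated data. Python 3.11.15, numpy 2.4.6, scipy 1.17.1, pandas 2.3.3 and scanpy 1.11.5 were used.

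Named members were those past 2-fold in both sexes, the 8 most abundant in granule-lineage cells, the 5 most abundant in each other class, those past 2-fold in 1 sex with the interval past 2-fold, and at most 4 genes of each pathway list. Col4a5, Lamb2, Col6a1, Col9a2, Itgb1bp1, Itgb2, Lama4 and the genes beside the 5 CPM limit fall outside this rule and were chosen after their values were seen. The members and lists were chosen with earlier results of these data known. Alternatives changed the pseudocount, the filter, the barcode filter, doublets, the granule gate, centring, cell phase and depth. Gene positions are from GENCODE M21 (GRCm38).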

Additional observations from a re-analysis of the deposited data

Results flagged for a closer look

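Col12a1 in postmitotic granule-lineage cells differed between genotypes in opposite directions in the sexes. In males it had 68 UMIs (9.92 CPM) in SG and 27 (3.63 CPM) in YSG, a YSG over SG fold of 0.366 [0.225 to 0.579]. In females it had 48 UMIs (7.70 CPM) in SG and 160 (13.2 CPM) in YSG, a fold of 1.715 [1.235 to 2.42]. Each interval lies on its own side of 1. In males Col12a1 passed the 5 CPM filter through the SG library alone and so had to be lower. The difference between the sexes was not tested, with 1 library in each group.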

How the results depend on the processing

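Counts and medians of members were recomputed under 13 other settings. In males 8 members were lower, 3 with a pseudocount of 5 CPM, 4 with a filter at 20 CPM and 3 in postmitotic cells. The 1 higher in males became 0 with the pseudocount of 5, with the filter at 20 and in cycling cells. The male median of -0.50 became -0.0858 with no filter, -0.39 with the filter at 20, -0.67 in cycling cells and -0.23 in postmitotic cells. In females 7 were lower, 4 with the pseudocount of 5 and 4 with the filter at 20. The 0 higher in females became 1 with a pseudocount of 0.1 CPM, with doublets left out, with all barcodes outside the other classes, in postmitotic cells and with cells thinned to 2000 UMIs. The female median of -0.44 became -0.12 with no filter, -0.57 in cycling cells and -0.18 in postmitotic cells. No called value changed sign. Ratios short of a call changed sign in 5 cases, all in females: Col12a1 from 0.05 to -0.82 in cycling cells, and in postmitotic cells Col18a1 from -0.20 to 0.20, Itga6 from -0.26 to 0.05, Itga7 from -0.12 to 0.26 and Itgav from -0.15 to 0.04. Lamb1 in cycling cells of females, below the filter there, had a fold of 0.826 beside 1.345 in all granule-lineage cells. Over 18 named members, 370 of 449 other values moved by less than their counting interval and 79 by more, 22 of these in postmitotic cells. No paired analysis was possible because each group has 1 library. Lama2 in YSG females, with 13 UMIs, is limited by depth.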
